A study of Mus musculus with 8 samples.

Results

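Interferon response and MHC class I genes are described here as a set of 35 genes that were listed by symbol. Each gene was found on the array through the RefSeq accession that the array design gives for a probe, and the probe with the brightest Cy5 signal stood for the gene. A probe was found for 34 of the 35 genes. *Mx2*, an antiviral dynamin-like GTPase, was matched by no probe through its accession and has no value here. *Ifit1*, which binds foreign RNA ends, had a probe that was well above background on 3 of the 8 arrays, 1 of control and 2 of BaP-exposed mice, and was not tested. The remaining 33 genes were tested among 15086 named genes.

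The arrays measured total RNA of the hippocampus of adult male Muta Mouse, a transgenic line that carries a bacterial reporter gene for scoring mutations. Benzo[a]pyrene (BaP), a polycyclic aromatic hydrocarbon, was given by oral gavage in olive oil on 3 days at 70 mg/kg bw per day, and control mice received the vehicle. The arrays held 4 BaP-exposed and 4 control mice. The tissue was taken 24 hr after the last dose, and the question was how the interferon and antigen presentation genes of the hippocampus compared after the exposure. The hippocampal RNA carried Cy5 and shared its array with a universal mouse reference RNA in Cy3, on 1 slide of 8 arrays, without a dye swap, so that every level below is a log2 ratio of sample over reference.

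Interferons are cytokines that cells release on sensing foreign or misplaced nucleic acid. They act through surface receptors, JAK kinases and STAT and IRF transcription factors, which bind response elements in the promoters of a large set of antiviral genes. Among these genes are the immunoproteasome subunits, the peptide transporter and the MHC class I heavy chains with their light chain B2M, which display peptides of the cell to T cells. In the healthy brain these genes are kept low in neurons and are expressed mainly by microglia, endothelium and the borders of the tissue.

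The response elements can be seen in the promoters of several members. The RefSeq table of mouse promoters (assembly GRCm38.p6) held a window of 250 bases before and 50 bases after the start site for 29 of the 35 genes, and held none for *Dhx58*, *Usp18*, *Ifi27*, *Mx2*, *Parp14* and *Iigp1*. The interferon-stimulated response element was searched on both strands as GAAA followed by NN and GAAA, and the gamma-activated site as TTCNNNGAA. The first was present in 15 of the 29 genes (51.7%), and in 3.99% of the 27025 genes in the table. The second was present in 7 of 29 (24.1%), and in 9.55% of all genes. A match describes the letters in this window and is not a measured binding site, and overlapping matches share bases. The stretches of 6 members are shown because these genes recur in the results, with the bases of each match to the first element in capitals. They lie at chr19:34583361-34583428 (plus strand), chr4:156200863-156200908 (minus strand), chr5:120907526-120907557 (minus strand), chr8:71537575-71537614 (minus strand), chr2:122147536-122147569 (plus strand) and chr17:36032804-36032837 (minus strand), in the order shown, upstream of the start site and read along the gene.
Ifit3: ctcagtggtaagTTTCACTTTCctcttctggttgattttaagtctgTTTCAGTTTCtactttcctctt
Isg15: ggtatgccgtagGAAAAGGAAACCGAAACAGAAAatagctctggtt
Oas1a: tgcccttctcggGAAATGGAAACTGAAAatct
Bst2: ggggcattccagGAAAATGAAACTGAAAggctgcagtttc
B2m: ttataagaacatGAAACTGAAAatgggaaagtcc
H2-T23: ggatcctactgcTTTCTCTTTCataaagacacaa
*Isg15* held 3 overlapping matches, *Oas1a* and *Bst2* held 2 each that overlapped, *Ifit3* held 2 that were apart, and *B2m* and *H2-T23* held 1 each.

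The 8 arrays had median Cy5 spot signals between 108 and 174 and median backgrounds between 67 and 71. All 10 listed markers of hippocampal neurons were tested, and *Neurod6*, *Prox1*, *Slc17a7* and *Camk2a* were above the reference RNA in each of the 8 mice. For the 4 arrays in the second row of the slide (BaP 3, BaP 4, Control 3 and Control 4), the submitters' title puts the mouse in one group and the source name in the other. Groups follow the titles here. By title, the beta-globin gene *Hbb-bs* lay between 5.05 and 5.46 in control mice and between 2.95 and 3.54 in BaP-exposed mice, the tight junction gene *Cldn5* between 5.25 and 5.39 and between 4.69 and 4.87, and 5.29% of all named genes did not overlap between groups, against 2.64% by source name. Values of the members by source name are given with those of the slide rows. No member was saturated on any array, and the values come from a tissue with many cell types, where fewer cells of a type and less RNA per cell cannot be told apart.

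None of the 33 tested members passed an adjusted p of 0.05 with a 1.5-fold change in limma, with the Benjamini-Hochberg adjustment taken over every tested probe, a rule that 0.0199% of the 15086 named genes passed. The lowest adjusted p among them was 0.498 (limma). Every BaP-exposed mouse was above every control mouse for 1 member, *Ifit3*, or 3.03% of those tested, against 5.29% of all named genes whose groups did not overlap in either direction, 2.72% upward and 2.57% downward. An unadjusted p of 0.05 or less was reached by *Ifit3* and *Iigp1* (limma), or 6.06% of members, against 9.45% of all named genes. A 1.5-fold difference was reached by 1 member, *Lgals3bp*, where 1.41% of all named genes had one. Its log2 fold change of 0.59 was close to that bound of 0.585. It was 0.56 with Agilent's processed signals, 0.55 with the authors' log2 ratios and 0.57 with the Cy5 channel alone, and 0.82 with median centring.

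The intervals state how large a change these 8 mice leave room for. The 95% interval of the log2 fold change lay within 1.5-fold either way for 26 of the 33 members, against 86.3% of all named genes, and within 2-fold either way for 31 of 33, against 96.9%. The exceptions to the wider bound were *Lgals3bp*, with an interval of -0.05 to 1.24, and *Bst2*, with one of -0.07 to 1.07. The median log2 fold change was 0.02 over the members and 0.00 over all named genes, with 18 members above 0 and 15 below. That split moved with the scaling and with single mice. With the authors' log2 ratios 16 members were above 0 and 17 below, and with Agilent's processed signals 21 and 12. Without Control 4 the numbers were 13 and 20, and without BaP 1 they were 26 and 7. With the Cy5 channel alone 22 members were above 0 and 11 below, and with median centring all 33 were above 0, where the median of all genes also moved to 0.21 and that of the members to 0.28. The median within-group SD was 0.20 for the members, with a range of 0.08 to 0.52, and 0.15 for all named genes.

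**Figure D1:**
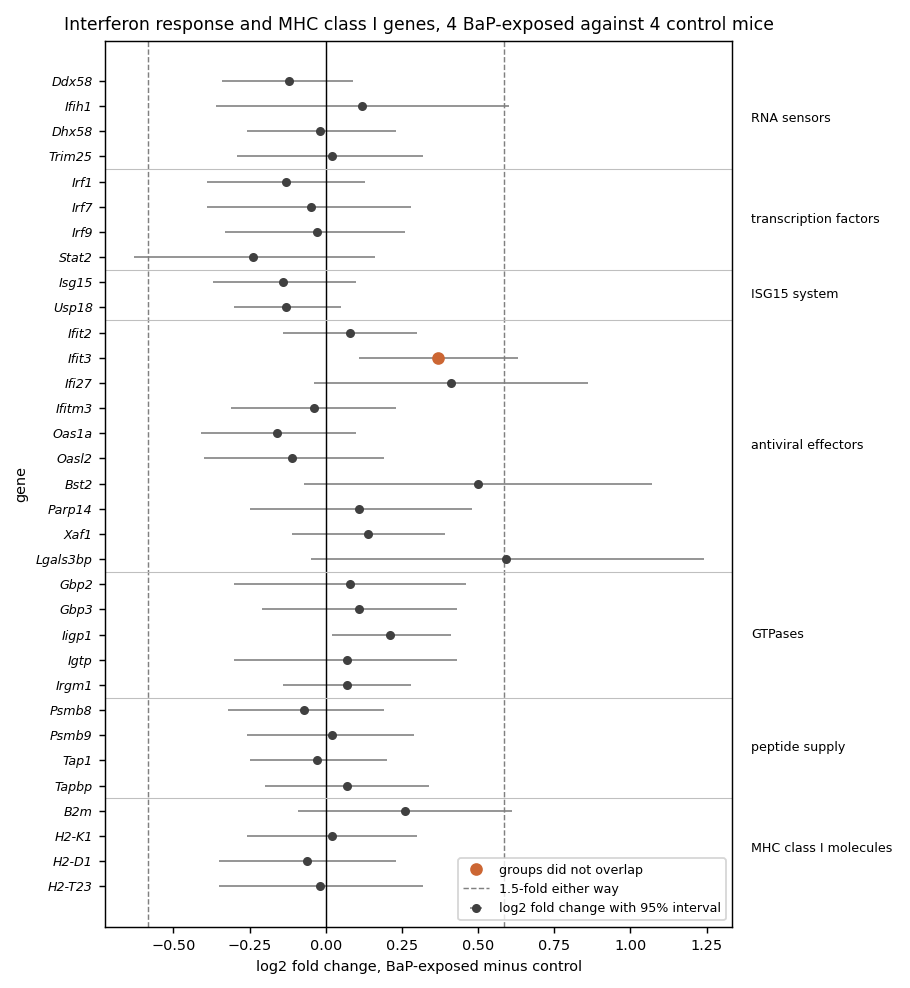
Log2 fold change of BaP-exposed over control mice (x axis) for the 33 tested members (y axis), grouped by role, as points with 95% intervals from limma; dashed lines mark a 1.5-fold change and the colored point marks the member whose groups did not overlap. Most points lie close to 0, and the intervals of *Lgals3bp* and *Bst2* reach furthest above 0.

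Relative to the universal reference RNA, the members were low in the hippocampus. In control mice, 32 of the 33 members were below the reference (97.0%), against 45.7% of all named genes, and 18 of 33 were below it by at least 4-fold (54.5%), against 7.2%. The median log2 ratio of the members in control mice was -2.10, and that of all named genes was 0.12. The exception was *Iigp1*, with a mean of 0.04. These ratios compare each gene with the same gene in the reference RNA, and say nothing of one gene's level against another's.

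The RNA sensors detect viral or misplaced RNA and start the response. *Ddx58*, which encodes RIG-I, had log2 ratios of -1.41, -1.57, -1.39 and -1.41 in control mice and -1.78, -1.39, -1.59 and -1.52 in BaP-exposed mice. Control 1, 3 and 4 lay almost together, Control 2 was below them, and BaP 1 was the lowest of all. The difference was -0.12 on the log2 scale (standard error 0.10, limma adjusted p = 0.718). *Trim25*, a ubiquitin ligase that activates RIG-I, had ratios of -2.16, -2.40, -2.06 and -2.14 in control mice and -2.39, -2.29, -1.77 and -2.23 in BaP-exposed mice. The groups overlapped, and BaP 3 was the highest of the 8 mice. *Ifih1*, which encodes the sensor MDA5, had a log2 fold change of 0.12 with an interval of -0.36 to 0.60. It was -0.06 without Control 4 and 0.27 without Control 1, and -0.39 and 0.63 in the first and second row of the slide. For *Dhx58*, a regulator of both sensors, the value was -0.02, and its probe was well above background on 5 of the 8 arrays.

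The transcription factors carry the signal to the promoters. *Stat2*, which joins IRF9 in the complex that binds the response element shown above, had log2 ratios of -0.80, -0.56, -1.43 and -1.11 in control mice and -1.28, -1.21, -0.96 and -1.41 in BaP-exposed mice. Controls 1 and 2 were above all 4 BaP-exposed mice, and Control 3 was below them. The log2 fold change was -0.24 with an interval of -0.63 to 0.16 (adjusted p = 0.703 from limma), and it was -0.39 without Control 3 (limma unadjusted p = 0.0298, adjusted p = 0.526) and -0.10 without Control 2. *Irf1*, an early interferon-gamma target, *Irf7*, the amplifier of type I interferon production, and *Irf9* had log2 fold changes of -0.13, -0.05 and -0.03. All 4 values were below 0 under loess normalization, and *Irf7* alone was above 0 with Agilent's processed signals and with Cy5 alone. In the second row of the slide taken alone, *Irf1*, *Irf9* and *Stat2* were above 0, at 0.10, 0.28 and 0.09. Median centring, which moved the median of all genes to 0.21, gave the 4 genes values of 0.04 to 0.23. Over the 8 mice each pair of groups overlapped.

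*Isg15* encodes a ubiquitin-like modifier that is among the most inducible interferon targets, and *Usp18* the protease that removes it from proteins. The log2 ratios of *Isg15* were -2.59, -2.90, -2.67 and -2.72 in control mice and -3.04, -2.73, -2.95 and -2.70 in BaP-exposed mice. The BaP-exposed mice included the lowest value, and the 2 groups overlapped. The difference was -0.14 on the log2 scale (standard error 0.11, limma adjusted p = 0.712), and a dimmer probe of the gene also gave -0.14. *Usp18* had the smallest spread of the members, with a pooled SD of 0.08 and a log2 fold change of -0.13 with an interval of -0.30 to 0.05. For *Isg15*, with its 3 matches in the promoter, the interval of the log2 fold change ran from -0.37 to 0.10.

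Antiviral effectors were the group with the widest range of differences, from -0.16 to 0.59 over 10 tested members, with a median of 0.13. *Ifit3*, which encodes a scaffold of the IFIT complex on foreign RNA, had log2 ratios of -0.53, -0.72, -0.68 and -0.97 in control mice. In BaP-exposed mice they were -0.52, -0.29, -0.45 and -0.15. All 4 BaP-exposed mice were above all 4 control mice, although BaP 1 and Control 1 were nearly level. On the log2 scale the difference was 0.37 with a standard error of 0.12, with an unadjusted p of 0.00963 and an adjusted p of 0.498 from limma. The exact permutation test, 2-sided over the 70 assignments of 8 mice, gave 0.0286, the smallest p that it can give. The groups of *Ifit3* overlapped with Agilent's processed signals and with the Cy5 channel alone. With Cy5 alone the member without overlap was *Usp18*, lower in BaP-exposed mice at -0.06, where 4.98% of all named genes did not overlap. Without BaP 4 both *Ifit3* and *Usp18* (-0.17) did not overlap, beside 11.8% of all named genes. *Ifit3b*, a closely related neighbor of *Ifit3* whose transcripts its probe may share, had a probe of its own with a difference of 0.16 on the log2 scale (standard error 0.12) and overlapping groups. *Ifit2*, another member of the complex, had a value of 0.08 with an interval of -0.14 to 0.30.

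*Lgals3bp*, *Bst2* and *Ifi27* had the highest log2 fold changes of the effectors. *Lgals3bp* and *Bst2* were picked for those values, and *Ifi27* had the brightest probe of the effectors. *Lgals3bp*, a secreted galectin-binding glycoprotein, had log2 ratios of -1.65, -2.12, -1.65 and -2.37 in control mice and -2.24, -1.06, -0.75 and -1.37 in BaP-exposed mice. *Bst2*, which encodes tetherin, a membrane protein that holds budding virus on the cell, had ratios of -3.60, -3.82, -3.48 and -3.86 in control mice and -4.07, -2.95, -2.63 and -3.13 in BaP-exposed mice. *Ifi27*, which encodes a small mitochondrial protein, had ratios of -0.77, -0.72, -0.59 and -0.95 in control mice and -0.98, -0.05, 0.07 and -0.41 in BaP-exposed mice. In all 3 genes, BaP 2, 3 and 4 were above every control mouse and BaP 1 was at or near the bottom of the 8. The log2 fold changes were 0.59 for *Lgals3bp*, 0.50 for *Bst2* and 0.41 for *Ifi27*, and their adjusted p-values in limma were 0.588, 0.601 and 0.588. A dimmer probe of *Lgals3bp* gave 0.34 with overlapping groups. Without BaP 1, the values were 0.89, 0.79 and 0.63, and without BaP 3 they were 0.39, 0.31 and 0.27.

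The other effectors stayed within a log2 fold change of 0.16 of 0. They were *Xaf1*, a pro-apoptotic protein, at 0.14, *Parp14*, a mono-ADP-ribosyltransferase, at 0.11, *Ifitm3*, which blocks viral entry at endosomes, at -0.04, *Oasl2*, a relative of the oligoadenylate synthetases, at -0.11, and *Oas1a*, which makes oligoadenylates that activate RNase L, at -0.16. *Oas1a* had a dimmer probe at -0.03. No group pair among them was free of overlap.

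**Figure D2:**
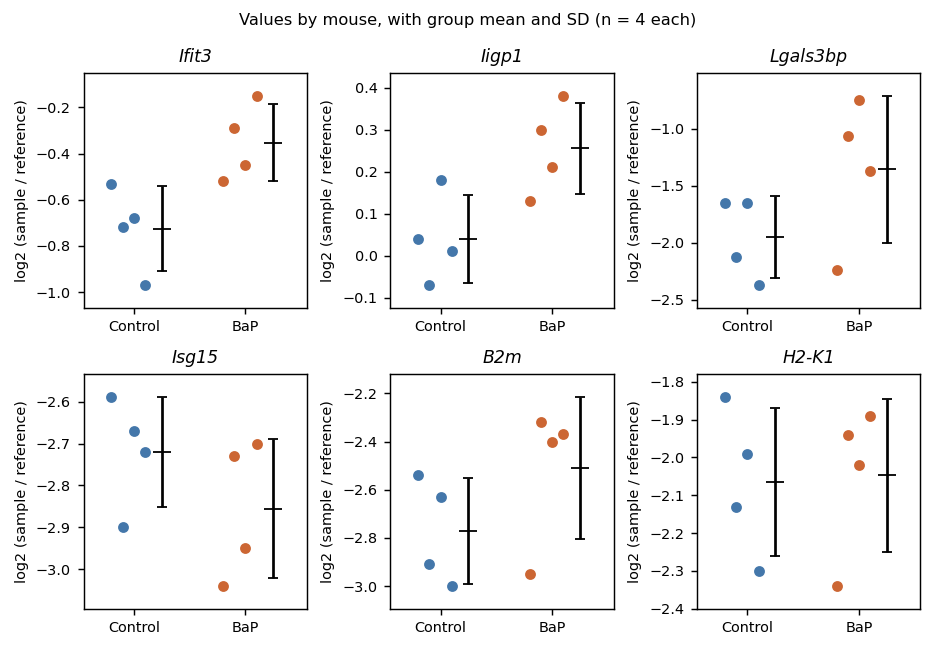
Log2 ratio of sample over reference (y axis) in each control (blue) and BaP-exposed (orange) mouse for 6 members, 1 point per mouse in replicate order, with the group mean and SD beside them (n = 4 each). Of these 6, the groups are apart in *Ifit3*, and in *B2m* and *H2-K1* 1 BaP-exposed mouse lies well below the other BaP-exposed mice.

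The interferon-inducible GTPases attack vacuoles that hold pathogens. All 5 had log2 fold changes above 0, from 0.07 to 0.21, under loess normalization, and 4 of them were below 0 in the first row of the slide taken alone. Without Control 4, *Gbp2* and *Igtp* were below 0, at -0.07 and -0.08. *Iigp1*, an immunity-related GTPase, had log2 ratios of 0.04, -0.07, 0.18 and 0.01 in control mice and 0.13, 0.30, 0.21 and 0.38 in BaP-exposed mice. Of the BaP-exposed mice BaP 1 alone lay below a control mouse, Control 3. The log2 fold change was 0.21 with an interval of 0.02 to 0.41, an unadjusted p of 0.0352 and an adjusted p of 0.544 from limma. The exact permutation test gave 0.0571 (2-sided). *Irgm1*, a regulator of the other immunity-related GTPases, had ratios of -1.51, -1.62, -1.69 and -1.78 in control mice and -1.61, -1.71, -1.58 and -1.42 in BaP-exposed mice. The 2 groups overlapped, with a log2 fold change of 0.07 for this probe and -0.04 for a dimmer one. *Gbp2* and *Gbp3*, guanylate-binding proteins, had values of 0.08 and 0.11, and *Igtp*, another immunity-related GTPase, had 0.07.

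The genes of peptide supply to MHC class I had log2 fold changes between -0.07 and 0.07. *Tapbp* encodes tapasin, which loads peptide on class I molecules, and had log2 ratios of -1.91, -2.12, -1.85 and -2.09 in control mice and -2.23, -1.90, -1.68 and -1.88 in BaP-exposed mice. BaP 1 was the lowest and BaP 3 the highest of the 8 mice. The log2 fold change was 0.07 with an interval of -0.20 to 0.34. The immunoproteasome subunits *Psmb8* and *Psmb9* had log2 fold changes of -0.07 and 0.02, and the peptide transporter subunit *Tap1* had -0.03, and the limits of their 3 intervals lay between -0.32 and 0.29.

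Of the class I molecules, *B2m*, the shared light chain, had log2 ratios of -2.54, -2.91, -2.63 and -3.00 in control mice and -2.95, -2.32, -2.40 and -2.37 in BaP-exposed mice. BaP 2, 3 and 4 were above all control mice, and BaP 1 lay apart from them among the lowest controls. The log2 fold change was 0.26 with an interval of -0.09 to 0.61 (adjusted p = 0.648 from limma), and 0.41 without BaP 1 (limma unadjusted p = 0.00907, adjusted p = 0.33), 0.18 without Control 4 and 0.19 without BaP 2 (limma unadjusted p = 0.299 and 0.283). The heavy chains *H2-K1* and *H2-D1* and the nonclassical *H2-T23* had log2 fold changes of 0.02, -0.06 and -0.02. A dimmer probe of *H2-K1* gave 0.23 with a standard error of 0.14. Heavy chain genes are alike in sequence and differ between mouse strains, so that these probes may take up more than 1 gene.

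Many members shared the order of the mice. Within the BaP group, BaP 1 was the lowest mouse in 28 of the 33 members (84.8%) and the highest in 0, while it was the lowest in 27.5% of the 14871 named genes with a value in all 8 mice. Within the control group, Control 4 was the lowest in 18 members (54.5%) and Control 1 the highest in 19 (57.6%), against 27.3% and 25.8% of those genes. The array of Control 1 had 1483 outlier spots, where the others had 310 to 371, and the highest median Cy5 signal (174) and share of spots well above background (67.4%, against 56.6% to 64.8%). Without Control 1, 24 members were above 0 and 9 below, and *Ifit2* and *Ifit3* did not overlap, beside 10.1% of all named genes. The part of that array in the order of the mice was not tested. The mean log2 ratio over the 33 members was -1.99, -2.15, -2.16 and -2.31 in control mice and -2.38, -2.0, -2.02 and -1.99 in BaP-exposed mice. BaP 1 was thus the lowest of the 8 mice and the other BaP-exposed mice were level with Control 1. Leaving out BaP 1 took the count of members without overlap from 1 to 6, with *Ifit3*, *Ifi27*, *Bst2*, *Lgals3bp*, *Iigp1* and *B2m*, where 10.9% of all named genes did not overlap in that setting, and the members' median log2 fold change to 0.09. None of them passed the adjusted threshold there.

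**Figure D3:**
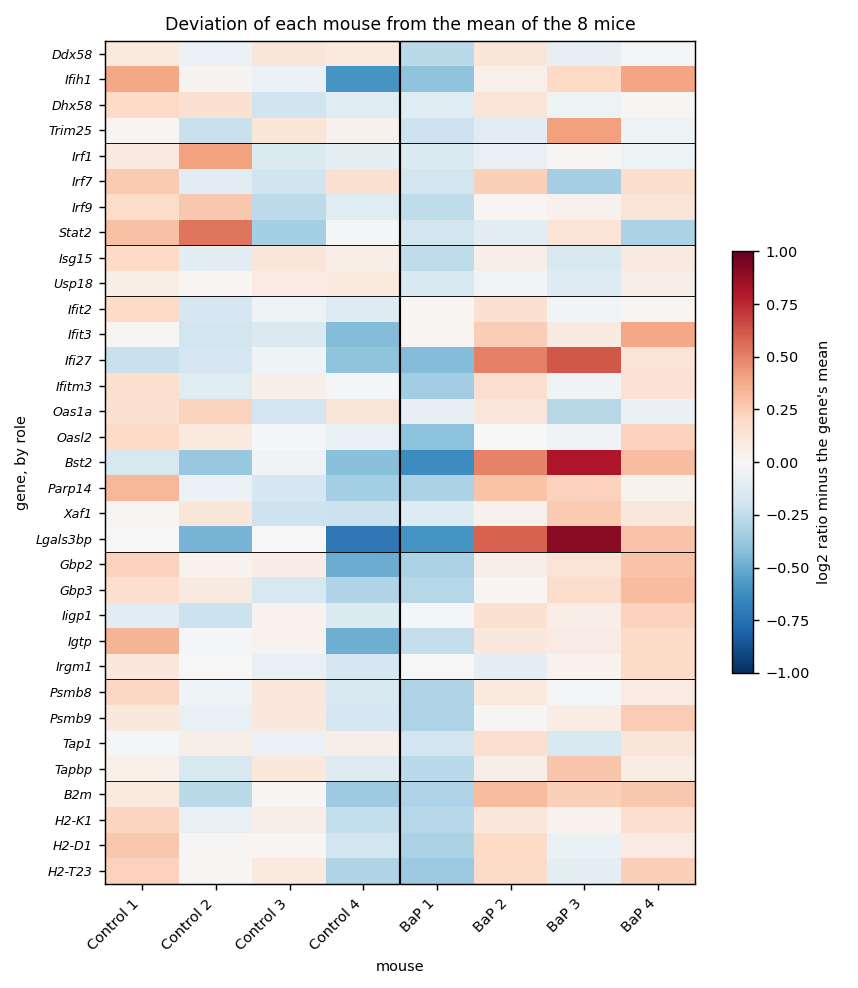
Log2 ratio of each of the 33 tested members (rows, by role) in each mouse (columns, control mice left of the line) minus the gene's mean over the 8 mice, with red above and blue below that mean. The column of BaP 1 is blue in most rows, and *Lgals3bp*, *Bst2* and *Ifi27* have the strongest colors.

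Within the rows of the slide, which held 2 mice of each group, the differences were not alike. In the first row, which held BaP 1, 7 members had a value above 0 and the median log2 fold change was -0.14, and in the second row, which held Control 4, 27 members did and the median was 0.19. The median of all named genes was 0.00 in both rows. The second row gave the higher value for 30 of the 33 members (90.9%), against 51.3% of all named genes. There were 7 members above 0 in both rows (21.2%, against 27.7% of all named genes), which were *Ifit2*, *Ifit3*, *Ifi27*, *Bst2*, *Lgals3bp*, *Iigp1* and *B2m*, and 6 were below 0 in both (18.2%, against 26.9%). *Ifit3* had values of 0.21 and 0.53, *Iigp1* of 0.23 and 0.20, and *Isg15* of -0.14 and -0.13. With the groups taken from the source names, the BaP group held BaP 1, BaP 2, Control 3 and Control 4. BaP 1 and Control 4 had the lowest means over the members, at -2.38 and -2.31. By source name 3 members had a value above 0 and 30 below, and the median was -0.17. *Irf1*, *Irf9* and *Gbp3* were then lower in the BaP group without overlap, at -0.23, -0.31 and -0.37, beside 2.64% of all named genes without overlap in that setting. *Ifih1* had -0.51, *Lgals3bp* -0.36 and *Ifit3* -0.16, and the lowest adjusted p of these 6 was 0.918 (limma). The unadjusted limma p was 0.00692 for *Ifih1*, 0.00723 for *Irf9* and 0.00313 for *Gbp3*, and 5 members had one of 0.05 or less, beside 4.49% of all named genes.

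**Figure D4:**
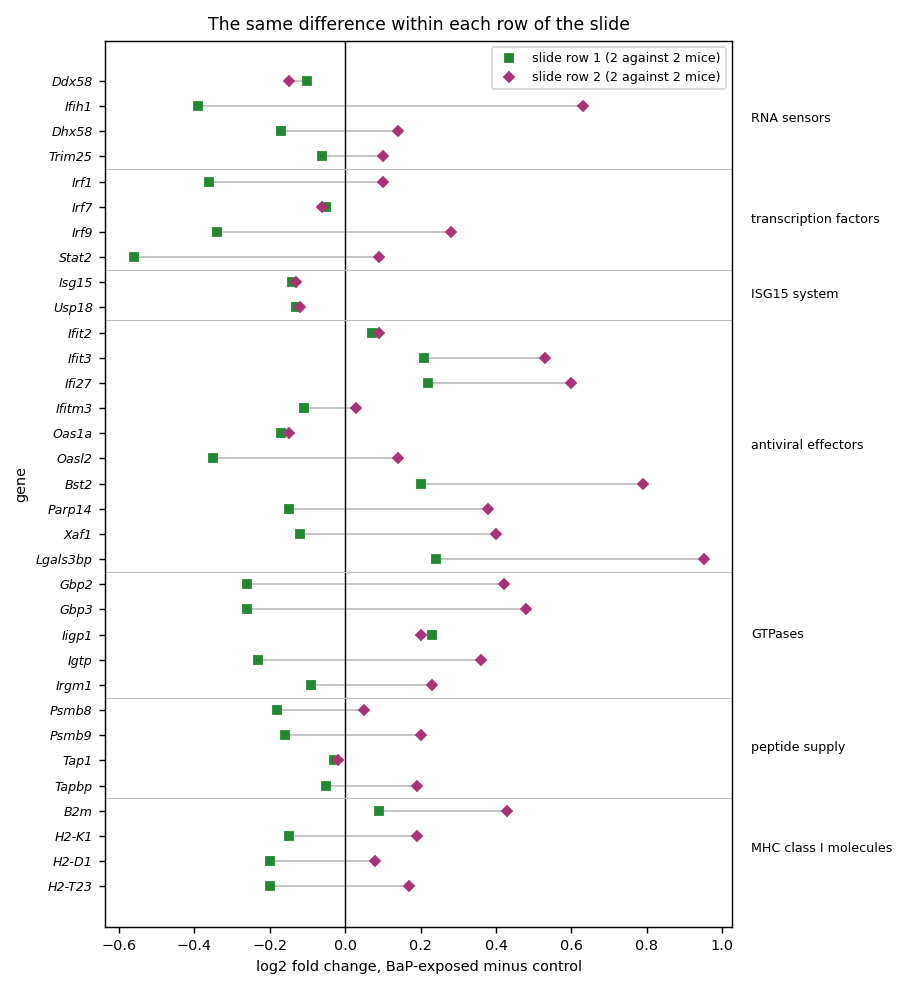
Log2 fold change of BaP-exposed over control mice (x axis) for each tested member (y axis) within the first (squares) and the second (diamonds) row of the slide, 2 mice against 2 in each. The diamonds lie right of the squares in 30 of the 33 members.

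Markers of cell types were read beside these values. Of the 10 hippocampal neuron genes 8 had a log2 fold change above 0, with a median of 0.22, and their mean was between 3.24 and 3.26 in control mice and 3.50, 3.77, 3.56 and 3.23 in BaP-exposed mice. *Dsp*, *Calb1* and *Grin2a* of that list had an unadjusted limma p of 0.05 or less, beside 9.45% of all named genes, with log2 fold changes of 1.02, 0.24 and 0.61 and overlapping groups, and 0 passed the adjusted threshold. Of 7 astrocyte genes 6 were below 0, with a median of -0.07. The 8 genes of the choroid plexus, the epithelium that makes cerebrospinal fluid, were all tested, had a median log2 fold change of 0.76, and overlapped between groups in each case. Their mean log2 ratio was 3.92, 2.85, 4.25 and 2.49 in control mice and 1.93, 4.81, 5.22 and 4.36 in BaP-exposed mice. BaP 1 and Control 4 were the lowest in it, as in the members. They were also the lowest in the mean of 7 meningeal fibroblast genes, at -2.06 and -2.07, where the other mice lay between -1.52 and -0.90. The mean of 12 microglial genes lay between 1.97 and 2.16 in control mice and between 2.01 and 2.12 in BaP-exposed mice. That of 11 endothelial genes lay between 1.19 and 1.44 and between 1.25 and 1.42. *Kdr* of the endothelial list had no value in Control 1, so that the mean of this mouse, 1.44, left it out. Of single endothelial genes, *Cldn5* had a log2 fold change of -0.57 without overlap (adjusted p = 0.138 from limma). *Slco1a4*, *Ly6a*, *Ly6c1* and *Tek* had values of 0.36, 0.36, 0.33 and 0.26 with overlapping groups, and their lowest adjusted p was 0.499 (limma). Of 14 leukocyte genes 5 were tested, and *Cd3d*, *Cd8a*, *Ms4a1* and *Ccr2* were well above background on 0 arrays, while *Ptprc*, *Cd3e*, *Cd4* and *Nkg7* were so on 8, with log2 fold changes of -0.13, -0.15, 0.05 and -0.04. The mean of the 5 lay between -0.72 and -0.59 in control mice and between -0.90 and -0.80 in BaP-exposed mice, and 4 of them had a log2 fold change below 0. *S100a9*, a neutrophil gene well above background on 7 arrays, had -0.68 without overlap (adjusted p = 0.381 from limma). Each of the other tested leukocyte genes overlapped, and the mean was not taken without *S100a9*. *S100a8* of the same list was well above background on 1 array. The 7 tested erythroid genes had a median log2 fold change of -0.80, and 6 of them were lower in BaP-exposed mice without overlap, beside 2.57% of all named genes. *Hbb-bs* and *Alas2*, the erythroid enzyme of heme synthesis, passed the adjusted threshold (adjusted p = 0.00234 and 0.0444 from limma).

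Relations of each member to the means of the choroid plexus, microglial and endothelial lists were computed over the 8 mice, 99 in all. Their p-values were adjusted over the 99 by the Benjamini-Hochberg method. In that order of lists, r was above 0 for 30, 30 and 29 of the 33 members, with medians of 0.637, 0.432 and 0.564. Among named genes outside each list, 51.2%, 51.0% and 50.6% had an r above 0, with medians of 0.019, 0.0104 and 0.0079. *Lgals3bp* had a Pearson r of 0.955 with the choroid plexus mean (exact permutation p = 0.000422, adjusted p = 0.0295) and a Spearman rho of 0.976 (exact permutation p = 0.000397, adjusted p = 0.0131), and r was 0.964 without BaP 1 and Control 4, the 2 mice farthest from the median. *Bst2* put the 8 mice in the same order as the choroid plexus mean, with a Pearson r of 0.945 (exact permutation p = 0.000893, adjusted p = 0.0295) and 0.934 without those mice. For *Ifi27*, r was 0.902 (exact permutation p = 0.00253, adjusted p = 0.0417) and rho 0.976 (exact permutation p = 0.000397, adjusted p = 0.0131), with an r of 0.848 without those mice. *Tapbp* and *B2m* had r of 0.956 and 0.937 (exact permutation p = 0.000719 and 0.00198, adjusted p = 0.0295 and 0.0393), and both had a rho of 0.881 (exact permutation p = 0.00724, adjusted p = 0.119). Without those mice their r was 0.919 and 0.888. *Ifit3* had an r of 0.588 (exact permutation p = 0.128, adjusted p = 0.275). With the microglial mean, 1 member passed by Pearson r, *Ifit2*, with an r of 0.931 (exact permutation p = 0.00126, adjusted p = 0.0313), a rho of 0.905 (exact permutation p = 0.00456, adjusted p = 0.113) and an r of 0.876 without Control 1 and Control 4. With the endothelial mean 0 passed at that threshold, the highest r being 0.867. *Tapbp*, *B2m*, *Lgals3bp*, *Bst2* and *Ifi27* had an r of 0.841, 0.833, 0.776, 0.673 and 0.592 with it. The endothelial mean of Control 1 left out *Kdr*, which had no value there, and what this did to r was not tested. Correlations within a group or a slide row, of 4 mice each, were not computed. As a background with no test, an r of 0.902 or more with the choroid plexus mean, the lowest of the 5 members that passed, was held by 1.85% of the 14863 named genes outside that list with a value in all 8 mice, against 15.2% of members. That bound was set by the members themselves. An r of 0.931 or more with the microglial mean was held by 0.0135% of named genes outside that list, against 1 member. One of 0.867 or more with the endothelial mean was held by 0.861%, also against 1 member. These bounds were the highest r of any member with each list, so that the count of 1 was fixed by the choice.

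With the choroid plexus mean of each mouse as a covariate in limma, which was chosen with the values in view, the log2 fold changes of *Lgals3bp*, *Bst2* and *Ifi27* were 0.29, 0.24 and 0.22, that of *B2m* was 0.11, and those of *Ifit3* and *Iigp1* were 0.31 and 0.17. None passed the adjusted threshold, and the lowest adjusted p of these 6 was 0.656 (limma). Once the fitted covariate term was taken off, 10 members were above 0 and 23 below, and the groups did not overlap for *Lgals3bp*, higher in BaP-exposed mice, and *Psmb8*, lower at -0.16, where 7.49% of all named genes did not overlap. *Lgals3bp*, *Bst2*, *Ifi27* and *B2m* are shown here because they ran with that mean, so that their lower values in this fit follow from the choice. The part of choroid plexus tissue in these differences was not tested.

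**Figure D5:**
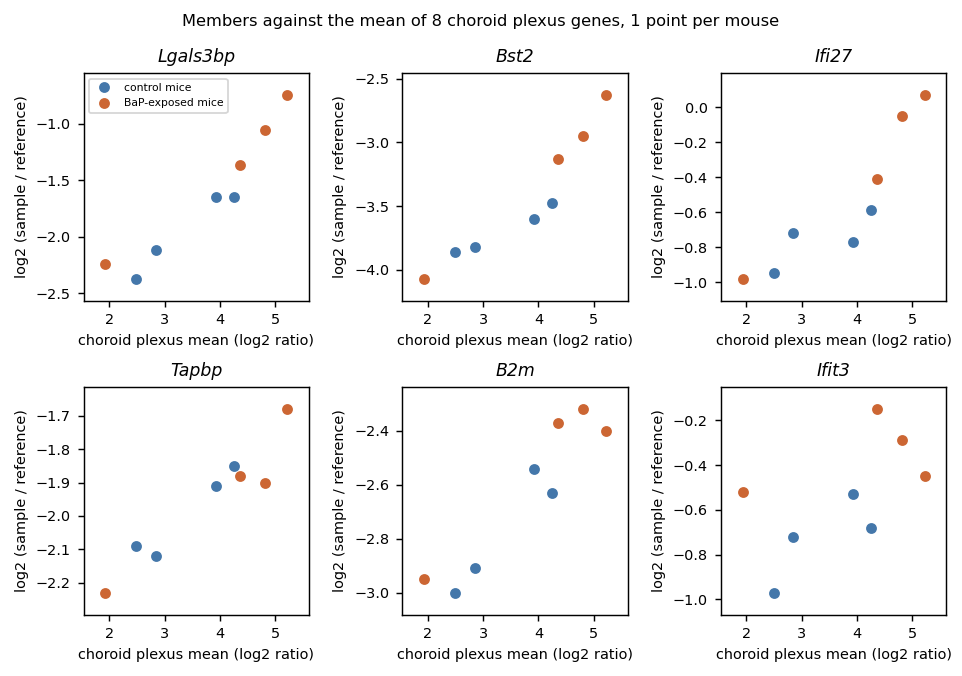
Log2 ratio of 6 members (y axes) against the mean log2 ratio of 8 choroid plexus genes (x axes), 1 point per mouse, control mice in blue and BaP-exposed mice in orange. The points of *Lgals3bp*, *Bst2*, *Ifi27*, *Tapbp* and *B2m* tend to be higher at a higher choroid plexus mean over the 8 mice, with r between 0.902 and 0.956, and r was 0.588 for *Ifit3*.

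The rest of the pathway was read from lists of 120 further genes, of which 99 were tested. In those lists 45 had a log2 fold change above 0 and 54 below, the median was -0.03, 0 passed the adjusted threshold in limma, and 7 did not overlap between groups, 2 higher and 5 lower in BaP-exposed mice, where 2.72% and 2.57% of all named genes did so. Of 10 ligands 4 were tested, and *Ifnb1*, the first interferon most cells make, was well above background on 0 arrays and *Ifng* on 1. *Ifna1* and *Ifnl3* were so on 8 arrays and *Ifnk* on 4, with log2 fold changes of 0.07, -0.06 and -0.12. *Il27*, a cytokine, had log2 ratios of -0.10 to -0.05 in control mice and -0.31 to -0.18 in BaP-exposed mice, with no overlap.

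All 14 receptor and kinase genes were tested, with a median of 0.04, and the receptor subunits *Ifnar1*, *Ifnar2*, *Ifngr1*, *Ifngr2* and *Il10rb* had values of 0.06, 0.22, 0.09, 0.00 and 0.32, all with overlapping groups. *Socs3*, an inhibitor of JAK signaling, was between -1.53 and -1.39 in control mice and between -1.98 and -1.55 in BaP-exposed mice, with no overlap (log2 fold change -0.25, adjusted p = 0.544 from limma). Upstream sensing genes, 14 of 16 tested, had a median of -0.05, and *Traf3*, a signaling adaptor, had the lowest value, -0.42, with overlapping groups (limma unadjusted p = 0.0114, adjusted p = 0.499).

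Of 40 other interferon-stimulated genes 32 were tested, with a median of -0.05 and 4 without overlap. *Oas2*, an oligoadenylate synthetase, was between -3.38 and -3.23 in control mice and between -3.74 and -3.41 in BaP-exposed mice, and *Adar*, an RNA editing enzyme, had a log2 fold change of -0.22. *Parp12*, an ADP-ribosyltransferase, was between -1.05 and -0.93 in control mice and between -0.89 and -0.49 in BaP-exposed mice, a difference of 0.34 on the log2 scale (limma adjusted p = 0.496). *Oasl1* was lower without overlap, with 1 control array missing as an outlier spot. The 4 genes without overlap were 1 higher and 3 lower, beside 2.72% and 2.57% of all named genes.

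*Gbp5*, 1 of 8 tested further GTPases, was higher without overlap, by 0.32 on the log2 scale (limma adjusted p = 0.517), and the median of that list was -0.09. The 21 tested further genes of class I presentation, a list that by its symbol also took in the metabolic enzyme *H2-Ke6*, had a median of -0.01 and a range of -0.15 to 0.21. The 7 tested MHC class II genes had a median of 0.04, and their mean was lowest in BaP 1, at -0.71, and Control 4, at -0.58. No gene of these last 2 lists was free of overlap.

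The members were also divided by the response element in their promoter. The 14 tested members with a match to the interferon-stimulated response element had a median log2 fold change of 0.07, with 8 above 0, and the 14 tested members whose window held none had a median of -0.01, with 7 above 0. Among all 428 tested genes with a match the median was -0.01. For the gamma-activated site, the medians were -0.04 over 7 members with a match and 0.02 over 21 without. These medians are descriptions and were not compared by a test.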

How the data were processed

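Spot intensities of the Cy5 and Cy3 channels, with outlier and detection flags, were deposited by the authors, as was a table of log2 ratios of Cy5 over Cy3 that the methods describe as LOWESS-normalized. The scanner software is given by the submitters' processing notes as Agilent Feature Extraction. From the deposited spot medians, the background was corrected with normexp (offset 50, limma 3.58.1, R 4.3.3), outlier spots were set to missing, and the log2 ratios of an array were normalized by loess. The 32600 of 55681 probes whose Cy5 signal was well above background on 4 or more arrays were fitted with lmFit and eBayes, and p-values were adjusted over all of them. Of 28685 probes with a RefSeq accession, 27229 were named through a table of GRCm38.p6 that was used for names and promoters. Summaries were made in Python 3.11.15. The scripts were tested on simulated data.

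The members, pathway lists and marker lists were chosen with earlier results of these data known. All 35 members were accounted for, and values by mouse were given for members without overlap, with an unadjusted p of 0.05 or less, with an outlying mouse, or with the brightest probe of their role, and for *Lgals3bp* and *Bst2*, which were chosen after their values were seen. The alternatives covered background correction, scaling, the authors' log2 ratios, probe filters, the test, blocks for replicate number and slide row, leaving out 1 mouse at a time and the source names as groups. RNA-seq data were not analysed here, and precision is limited by having 4 arrays a group.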

Additional observations from a re-analysis of the deposited data

Results flagged for a closer look

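In groups of 4, a mouse was marked where its gap to the nearest other mouse as a share of the group's range exceeded Dixon's critical value at the 95% level. Of 72 groups examined, over 33 members and 3 marker means, 2 were marked, and chance marks about 1 in 20, or 3.6 here. For Ddx58, Control 2 had a log2 ratio of -1.57, where the other control mice lay between -1.41 and -1.39, a gap of 0.864 of the range. For B2m, BaP 1 had a log2 ratio of -2.95, where the other BaP-exposed mice lay between -2.40 and -2.32, a gap of 0.864 of the range. The same mouse was the lowest of its group in 28 of the 33 members.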

How the results depend on the processing

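The count of members past the adjusted threshold was 0 under every alternative that gave a test, the gene-wise F test included, which put 2 members at an unadjusted p of 0.05 or less, beside 8.7% of all named genes. The lowest adjusted p of any member over the alternatives by title was 0.218. The number of members without overlap was 0 with Agilent's processed signals, 2 with median centring, 10 in slide row 1 alone, 19 in slide row 2 alone and 3 with groups by source name. The share of all named genes without overlap was 5.4%, 10.2%, 39.9%, 38.6% and 2.64% in these settings. The number at an unadjusted p of 0.05 or less was 6 with median centring, 1 with the Cy5 channel alone, 1 and 9 in slide rows 1 and 2, and 5 with groups by source name, where 22.8%, 8.24%, 7.7%, 6.79% and 4.49% of all named genes were. The median log2 fold change of the members was 0.28 with median centring, -0.14 and 0.19 in slide rows 1 and 2, and -0.17 with groups by source name. With 1 mouse left out, the members without overlap numbered 1 to 6 (6.67% to 11.8% of all named genes), those at an unadjusted p of 0.05 or less 1 to 6 (5.36% to 12.3%), and the median was -0.05 to 0.09. Both highest counts came without BaP 1 (10.9% and 12.2% of all named genes), and without Control 3 they were 3 and 4 (9.96% and 9.9%). With the choroid plexus mean as a covariate, 2 members did not overlap, beside 7.49% of all named genes. The unadjusted p was 0.05 or less for 3 members, beside 7.74% of all named genes, and the median was -0.05. In these settings the cause was not tested.

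Of the 24 alternatives by title, 6 leave the members' estimates as they are. Over the other 18, 40 of 594 values moved by more than the within-group SD. Median centring raised the median of all genes to 0.21, and over the 17 without it 11 of the 33 members kept the sign of their log2 fold change, 7 above 0 and 4 below (Ddx58, Isg15, Oas1a and Usp18), and 22 did not. The replicate numbers are shared by the groups, but same-numbered mice did not deviate together (r of -0.354, 0.0313, -0.00716 and -0.00662), and with the replicate block 2 members, Ifit3 and Ifi27, had an unadjusted p of 0.05 or less in limma, Iigp1 did not (0.0714), 7.93% of all named genes did, and 0 members passed the adjusted threshold. Low signal over background limits Ifit1 and Dhx58.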
